A study of Homo sapiens with 19 samples.

Results

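The aryl hydrocarbon receptor AHR and 6 of the genes it is known to switch on or that feed back on it (AHRR, TIPARP, CYP1A1, CYP1A2, CYP1B1 and ALDH3A1) were followed in HepaRG cells, a human hepatic line used for work on drug metabolism. These 7 genes were chosen by name from a table of 78894 genes, and all 7 passed the filter on low counts that left 23121 genes for testing. RNA sequencing of 19 libraries in 2 batches compared knockdown of the RNA editing enzymes ADAR and ADARB1, interferon alpha (IFNa) and the kinase inhibitor BX795 with a control siRNA (siNC). Total counts ran from 42.7 to 77.1 M in batch 1 and from 13.1 to 34.7 M in batch 2. The series is about how loss of the editing enzymes changes genes of drug handling, and these genes include enzymes of that kind.

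All groups were differentiated HepaRG cells, the labels giving hepatic carcinoma as their cell type. In batch 1 the 3 siNC, 3 ADAR siRNA and 3 ADARB1 siRNA libraries came from cells given 20 nM of the named siRNA. Batch 2 had its own 3 siNC libraries, 2 IFNa libraries (1000 U/mL), 3 BX795 libraries (1 µM) and 2 libraries of BX795 at the same dose with the ADAR siRNA. Both agents were added on the day of transfection and present again in the fresh medium given at 24 h and 48 h. The sources used here do not say whether cells given IFNa or BX795 alone also received siNC. If they did not, agent and transfection cannot be told apart where either agent alone is compared with siNC. A single siRNA was used per target, in 1 cell line, and nothing in the labels ties replicates to separate cultures, so p-values measure the spread between libraries only.

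AHR is a transcription factor that waits in the cytosol in a complex with HSP90 and the co-chaperone p23 (PTGES3). Bound by ligands such as polycyclic aromatic hydrocarbons, dioxins or tryptophan metabolites, it enters the nucleus, pairs with ARNT and activates genes that carry its response element. The CYP1 enzymes then oxidise many of these ligands, while AHRR and TIPARP restrain the receptor. In liver, CYP1A2 is a hepatocyte drug-metabolising enzyme that is present without an added ligand, and CYP1A1 is classically low until it is induced.

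The promoter windows below are shown because the response element of the receptor has the core GCGTG, and the members differ in whether that core lies just upstream of their start. Each is the RefSeq sequence of GRCh38.p14, 250 bases before an annotated start, written 5′ to 3′ on the strand of the gene. Capitals mark GCGTG or, for the other strand, its complement CACGC, the 2 forms searched.
CYP1A1 (chr15:74725529-74725778, minus strand): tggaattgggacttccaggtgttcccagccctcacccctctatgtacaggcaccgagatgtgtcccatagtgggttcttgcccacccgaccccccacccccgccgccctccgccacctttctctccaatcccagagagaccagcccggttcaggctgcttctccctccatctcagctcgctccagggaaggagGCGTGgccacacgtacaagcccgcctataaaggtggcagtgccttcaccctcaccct
CYP1A2 (chr15:74748595-74748844, plus strand): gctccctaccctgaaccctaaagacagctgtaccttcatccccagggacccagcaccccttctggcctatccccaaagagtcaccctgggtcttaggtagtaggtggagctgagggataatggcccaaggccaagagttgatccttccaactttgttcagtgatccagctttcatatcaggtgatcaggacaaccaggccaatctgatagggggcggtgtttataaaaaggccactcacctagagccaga
TIPARP, first start (chr3:156674340-156674589, plus strand): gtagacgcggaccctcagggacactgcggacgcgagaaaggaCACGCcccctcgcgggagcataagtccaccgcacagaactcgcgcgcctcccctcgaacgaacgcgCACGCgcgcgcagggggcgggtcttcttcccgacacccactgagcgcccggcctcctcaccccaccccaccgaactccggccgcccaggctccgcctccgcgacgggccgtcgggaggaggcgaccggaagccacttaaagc
AHRR, second start (chr5:322360-322609, plus strand): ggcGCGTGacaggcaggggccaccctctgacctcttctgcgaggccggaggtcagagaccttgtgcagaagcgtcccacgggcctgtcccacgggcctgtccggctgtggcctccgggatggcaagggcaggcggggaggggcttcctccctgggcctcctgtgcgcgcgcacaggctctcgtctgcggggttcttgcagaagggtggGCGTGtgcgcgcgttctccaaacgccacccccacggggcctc

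The CYP1A1 window held 1 core, 57 bases before the start, and the CYP1A2 window held 0. The first TIPARP window held 2 cores, 208 and 142 bases before the start, both on the other strand, and the windows of its other starts held 0. The second AHRR window held 2, at 247 and 42 bases, and the first (chr5:321464-321713) held 1 at 30 bases. The AHR window (chr7:17298402-17298651) held 0. CYP1B1 and ALDH3A1 had no window here. The core is short and common: it was found in 11245 of 34943 RefSeq windows of this length (32.2%), and 10.2% held 2 or more. A match is a description of letters and not a bound site, and a window without one says nothing of elements farther away.

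The siRNAs lowered their targets: ADAR was 262 ± 2.29 CPM (counts scaled to library size with TMM factors, mean ± SD) in the batch 1 controls and 64.6 ± 5.32 with its siRNA, and 268 ± 14.5 with BX795 and 54.2 ± 2.36 with BX795 and the siRNA. ADARB1 was 32.6 ± 1.1 CPM in the controls and 10.9 ± 0.562 with its siRNA. The control libraries of both batches were unlike each other. Summed hepatocyte markers (10 genes, ALB and APOA1 among them) were 71200 to 76500 CPM in the batch 1 controls and 12200 to 14800 CPM in those of batch 2, so every comparison was made within a batch. In batch 2 the controls also stood apart in how level went with GC content. The log2 CPM of each gene was first taken relative to its mean over the libraries of the same batch. The GC trend of a library was then the median of genes above 60% GC minus that of genes below 40% GC. It came to 0.27, 1.04 and 0.87 in the 3 controls, and to between -0.61 and 0.09 in the 7 treated libraries. In batch 1, relative to the mean of that batch, this GC trend lay between -0.08 and 0.13. Results were therefore also computed with a GC correction, which removes each library's trend of level on GC, and its values stand beside the member results whose call or direction it changed, or whose called value it moved by over 1.5 times. The endothelial marker CDH5 and the blood cell marker PTPRC were near 0 (at most 4 and at most 6 counts in a library), while KDR was well expressed. The blood cell and macrophage list still summed to 42.4 to 52.5 CPM in the batch 1 controls, with CD68 and CD14 among its 4 tested genes. EPCAM had at most 1 count.

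The receptor gene was well expressed in all 7 groups. AHR (ENSG00000106546.14, chr7:17298652-17346147) had 188, 193 and 204 CPM in the batch 1 controls, 218, 203 and 209 with ADAR siRNA, and 168, 164 and 163 with ADARB1 siRNA. In batch 2 it had 460, 561 and 703 CPM in the controls, 485 and 528 with IFNa, 418, 408 and 409 with BX795, and 539 and 477 with BX795 and ADAR siRNA. The BX795 and ADARB1 siRNA libraries were each below all of their controls, and the other treated groups overlapped theirs. The batch 2 controls were the most scattered group for this gene, at 574 ± 122 CPM (n = 3). A long noncoding gene, LOC101927609, overlaps the first 669 bases of AHR.

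AHRR (ENSG00000063438.20, chr5:321714-438285), the repressor that competes with AHR for ARNT, had 30.3 ± 0.237 CPM in the batch 1 controls, 27.4 ± 1.1 with ADAR siRNA and 28.2 ± 2.02 with ADARB1 siRNA. In batch 2 it had 71.8, 82.0 and 82.3 CPM in the controls, 60.4 and 72.8 with IFNa, 59.8, 55.0 and 55.0 with BX795, and 64.6 and 50.3 with BX795 and ADAR siRNA. All 5 libraries with BX795 were below the controls, and IFNa replicate 2 lay among them. The readthrough gene PDCD6-AHRR covers all 116572 bases of AHRR. How reads were divided between both is not given, and the readthrough gene took 0 to 65 counts per library.

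TIPARP (ENSG00000163659.13, chr3:156674590-156706770) encodes a member of the poly(ADP-ribose) polymerase family that is induced by AHR and dampens it. In batch 1 it had 39.5, 45.4 and 42.2 CPM in the controls, 29.7, 28.7 and 30.5 with ADAR siRNA, and 37.0, 35.8 and 35.1 with ADARB1 siRNA. In batch 2 it had 34.1, 25.3 and 30.8 CPM in the controls, 47.2 and 38.5 with IFNa, 40.3, 49.7 and 44.4 with BX795, and 32.4 and 39.6 with BX795 and ADAR siRNA. Neither knockdown group of batch 1 overlapped its controls, and IFNa and BX795 were above theirs. The antisense gene TIPARP-AS1 shares 1124 bases with TIPARP. The libraries were directional, but whether the counting used strand is not given, so reads of the shared bases may have been counted for either gene.

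CYP1A1 (ENSG00000140465.15, chr15:74719542-74725528) and CYP1A2 (ENSG00000140505.7, chr15:74748845-74756607) lie head to head with 23316 bases between them. CYP1A1, the classical readout of the active receptor, was weakly expressed in the controls of both batches. Batch 1 had 2.25, 2.99 and 2.08 CPM in the controls, 1.42, 1.72 and 1.45 with ADAR siRNA, and 0.770, 0.960 and 1.79 with ADARB1 siRNA. Batch 2 had 2.02, 1.12 and 0.964 CPM in the controls, 3.67 and 3.21 with IFNa, 8.35, 8.60 and 9.48 with BX795, and 9.38 and 7.83 with BX795 and ADAR siRNA. The 5 libraries with BX795 were far above the other 14, and no treated group overlapped its own controls. The depth behind these levels was small in the batch 2 controls, with 51, 18 and 13 counts.

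CYP1A2, which oxidises caffeine among other drugs, had the widest gap between the batches. Batch 1 had 10.1, 11.3 and 10.5 CPM in the controls, 15.7, 14.7 and 16.2 with ADAR siRNA, and 9.79, 6.16 and 7.79 with ADARB1 siRNA. Batch 2 had 0.356, 0.187 and 1.04 CPM in the controls, 0.0770 and 0.146 with IFNa, 0.728, 0.877 and 1.29 with BX795, and 2.01 and 1.69 with BX795 and ADAR siRNA. In batch 1 the ADAR siRNA libraries were above and the ADARB1 siRNA libraries below the controls, while in batch 2 the BX795 libraries overlapped the controls. These batch 2 levels rest on 26 counts over the 3 controls and 7 counts over the 2 IFNa libraries.

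CYP1B1 (ENSG00000138061.13, chr2:38067509-38076151), an enzyme of oestrogen and polycyclic hydrocarbon metabolism that is mostly known from tissues outside the liver, had the smallest standard error of the 7 members in each comparison of a treatment with siNC. Batch 1 had 41.2, 42.7 and 41.9 CPM in the controls, 24.3, 24.9 and 22.8 with ADAR siRNA, and 40.3, 42.8 and 37.8 with ADARB1 siRNA. Batch 2 had 103, 119 and 114 CPM in the controls, 124 and 134 with IFNa, 44.4, 42.8 and 41.1 with BX795, and 44.8 and 47.0 with BX795 and ADAR siRNA. ADAR siRNA in batch 1 and BX795 in batch 2 each set the libraries well below their controls, and ADARB1 siRNA left them overlapping.

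ALDH3A1 (ENSG00000108602.18, chr17:19737984-19748298) oxidises aromatic and medium-chain aldehydes. Batch 1 had 54.6, 50.7 and 60.8 CPM in the controls, 116, 115 and 125 with ADAR siRNA, and 47.2, 42.4 and 49.98 with ADARB1 siRNA. Batch 2 had 40.4, 54.4 and 53.4 CPM in the controls, 27.1 and 29.8 with IFNa, 21.6, 20.1 and 21.9 with BX795, and 53.0 and 41.1 with BX795 and ADAR siRNA. It was the member with the highest level under ADAR siRNA relative to its controls, and its lowest libraries of all 19 were those with BX795 alone.

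**Figure D1:**
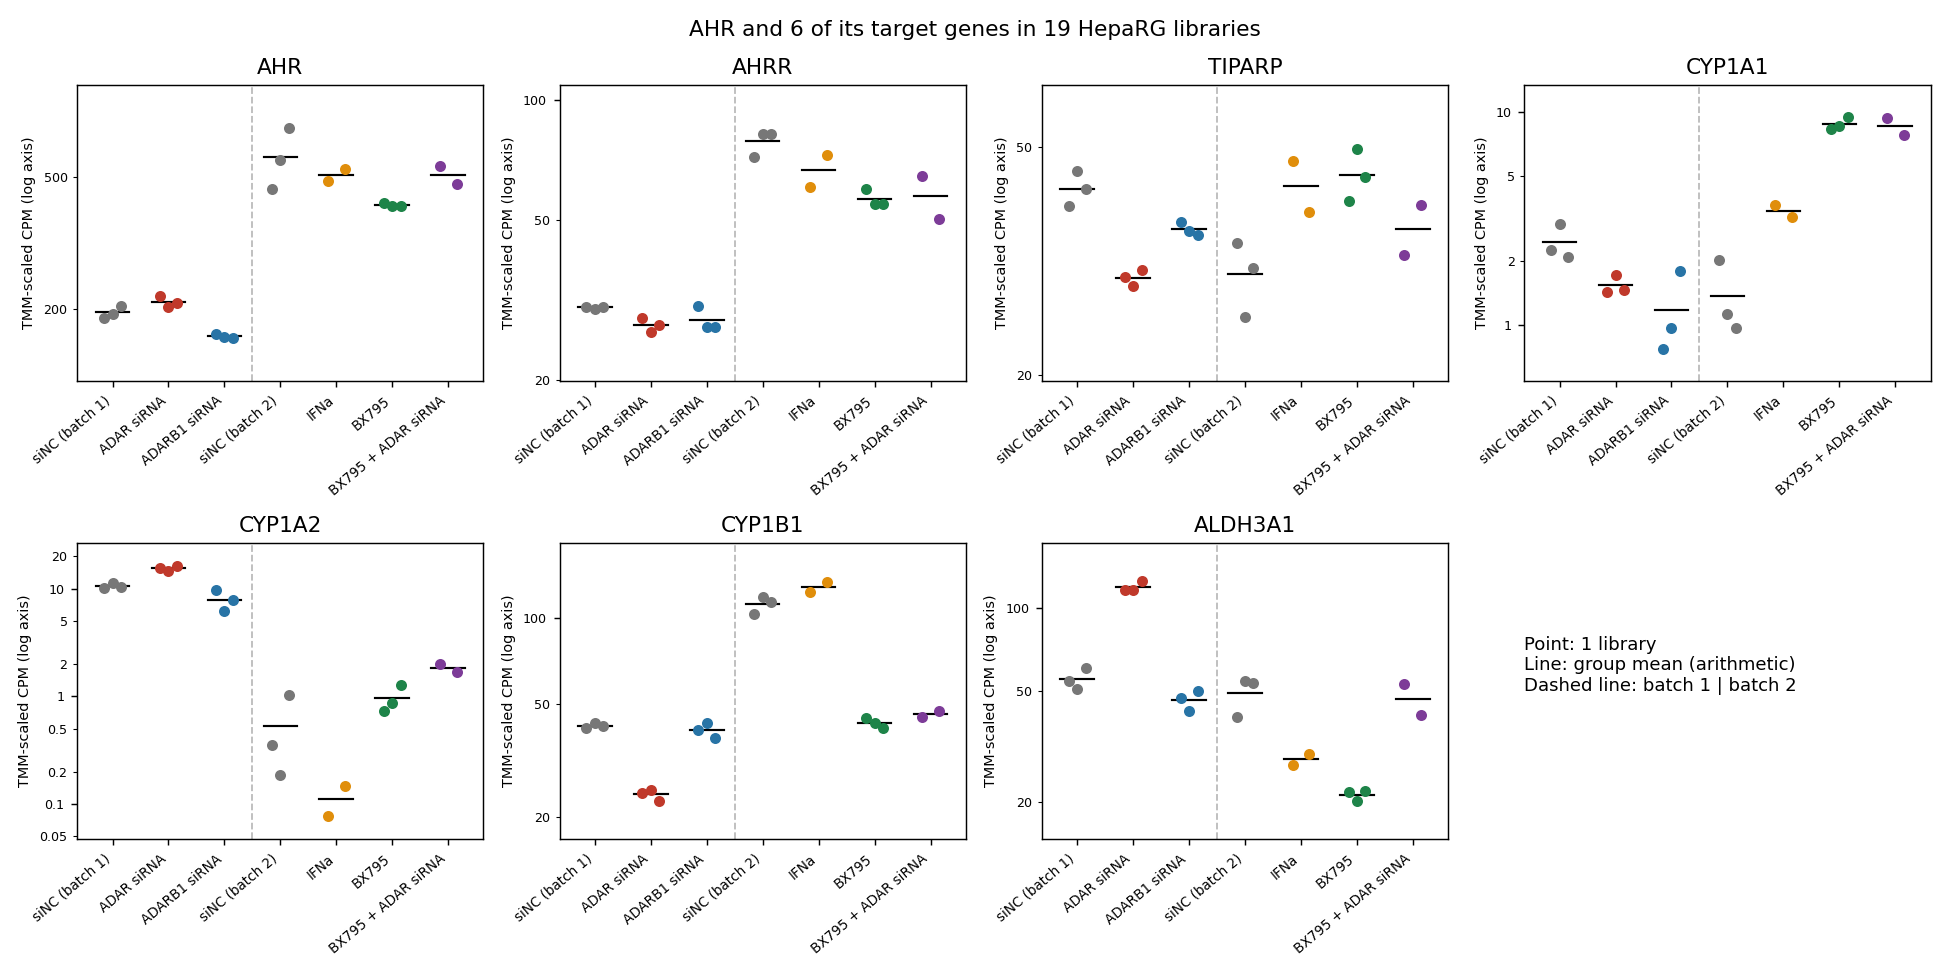
TMM-scaled CPM (log axis, a range of its own per gene) of AHR and 6 of its target genes in 19 libraries: points are libraries, short lines group means, and the dashed line parts batch 1 from batch 2. The 5 libraries with BX795 have the highest CYP1A1 (7.83 to 9.48 CPM), and CYP1B1 is low with ADAR siRNA (22.8 to 24.9 CPM) and, in batch 2, with BX795 (41.1 to 47.0 CPM).

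On a scale that allows genes to be compared, CPM per kilobase of exon, the receptor outranked its target enzymes in the controls of both batches. AHR was at 24.1 ± 0.994 CPM per kilobase in the batch 1 controls, ALDH3A1 at 14.1 ± 1.3, TIPARP at 8.39 ± 0.591 and CYP1B1 at 6.97 ± 0.126. AHRR at 3.95 ± 0.0309 and CYP1A2 at 3.9 ± 0.219 CPM per kilobase did not differ beyond their SDs, and CYP1A1 was lowest at 0.71 ± 0.141. In the batch 2 controls the order by CPM per kilobase was AHR at 71.1 ± 15.1, CYP1B1 at 18.6 ± 1.31, ALDH3A1 at 12.6 ± 1.98, AHRR at 10.2 ± 0.777, TIPARP at 5.96 ± 0.877, CYP1A1 at 0.398 ± 0.165 and CYP1A2 at 0.193 ± 0.165. Here the SDs of ALDH3A1 and AHRR met, as did those of CYP1A1 and CYP1A2. With ADAR siRNA, ALDH3A1 reached 30.3 ± 1.32 CPM per kilobase, above AHR at 26 ± 0.956.

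The CYP1 family had a different make-up in the controls of each batch, and it shifted most with ADAR siRNA in batch 1 and with BX795 in batch 2. As shares of the summed CPM per kilobase of the 3 genes, the batch 1 controls held 60.2% ± 1.42 CYP1B1, 33.6% ± 0.551 CYP1A2 and 6.11% ± 0.972 CYP1A1. With ADAR siRNA the CYP1A2 share was 56.2% ± 2.41 and the CYP1B1 share 39.4% ± 2.01, with no overlap with the controls in either. With ADARB1 siRNA the shares were 67.5% ± 5.41 CYP1B1 and 29% ± 5.37 CYP1A2, the latter overlapping the controls. The batch 2 controls were almost wholly CYP1B1, at 96.9% ± 1.03, and so were the IFNa libraries, at 95.4% ± 0.636. With BX795 the CYP1A1 share was 25.6% ± 1.68, against 2.11% ± 1.02 in the controls, and it was 23.2% ± 2.62 with BX795 and ADAR siRNA. These are shares of RNA and not of enzyme.

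**Figure D2:**
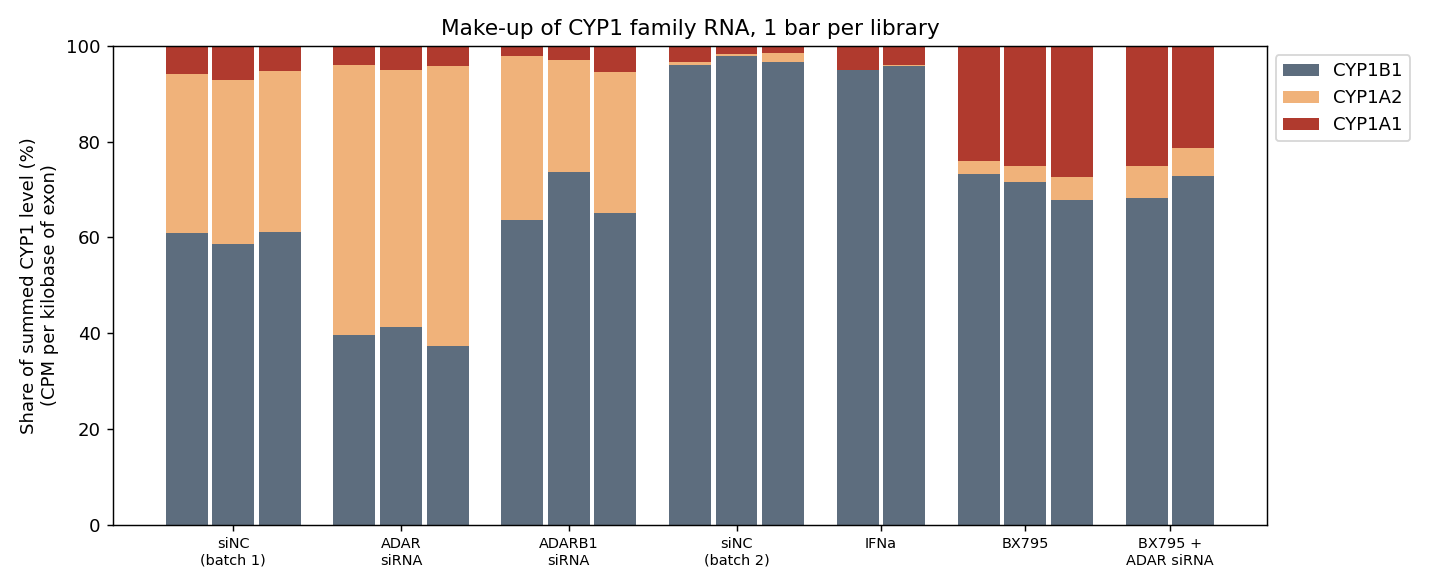
Share (%) of each CYP1 gene in the summed CYP1 level, in CPM per kilobase of exon, with 1 bar per library in 7 groups. CYP1A2 makes up 53.7% to 58.5% in the ADAR siRNA libraries and 33.1% to 34.2% in their controls, and CYP1A1 makes up 21.3% to 27.4% wherever BX795 was given.

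With ADAR siRNA, ALDH3A1 rose, CYP1B1 and TIPARP fell, and AHR itself stayed uncalled. ALDH3A1 was 2.14-fold higher than in siNC (log2 fold change 1.10 ± 0.107 SE, adjusted p = 6e-07), CYP1B1 was 1.74-fold lower (-0.80 ± 0.067, adjusted p = 9.69e-08) and TIPARP 1.43-fold lower (-0.51 ± 0.105, adjusted p = 0.00139) by the quasi-likelihood F test of edgeR, with p adjusted by Benjamini-Hochberg over all tested genes. Genes with an adjusted p under 0.05 are spoken of as called. Thus 3 of 7 members were called, 1 higher and 2 lower, where 21.8% of all tested genes were called (11% higher, 10.8% lower). Their median log2 fold change was -0.15, against -0.02 over all tested genes. The paired neighbours on chromosome 15 had opposite signs, CYP1A1 at -0.66 ± 0.249 (adjusted p = 0.0663) and CYP1A2 at 0.55 ± 0.194 (adjusted p = 0.0508). Both were called with the GC correction (adjusted p = 0.0391 and 0.0219) and without the filter on low counts (adjusted p = 0.0149 and 0.00189). CYP1A1 stayed uncalled in 10 of 12 alternatives and CYP1A2 in 7 of 12. AHR was at 0.11 ± 0.102 (adjusted p = 0.529), called in the fit of batch 1 alone (0.12, adjusted p = 0.0324), and AHRR at -0.15 ± 0.092 (adjusted p = 0.291), which the GC correction called (adjusted p = 0.0365).

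The rest of the pathway also split under ADAR siRNA. Of 7 genes of the AHR complex and its dimer partners, HSP90AA1, the stress-inducible HSP90 form, was the one that rose (0.39 ± 0.063), and 2 fell, among them ARNT (-0.44 ± 0.093). Of 15 other AHR-responsive genes, 5 rose and 1 fell. SERPINB2, a plasminogen activator inhibitor, rose by 1.84 ± 0.192, and XDH, the xanthine dehydrogenase gene, fell (-0.74 ± 0.095). Of 7 tested genes of enzymes that turn tryptophan toward AHR ligands, 5 fell and 0 rose. TDO2, which opens the tryptophan ring in liver, fell most (-1.64 ± 0.11, from 272 ± 2.99 to 87.2 ± 6.4 CPM), and KYAT1 fell by 0.87 on the log2 scale. IDO1, IDO2 and IL4I1, the other tryptophan genes listed, did not pass the filter. TIPARP-AS1 fell with TIPARP (-0.56 ± 0.112), and CYP1B1-AS1 with CYP1B1 (-0.59 ± 0.191). Other P450s moved in both directions (2 of 12 higher, 5 lower), with CYP3A4 at 2.24 ± 0.112 and CYP7A1 at -1.36 ± 0.098.

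Markers of cell state moved in the same libraries. Of 10 hepatocyte markers 7 were lower and 0 higher, with a sum of 52200 to 55700 CPM against 71200 to 76500 in the controls. All 7 tested biliary and progenitor markers were higher, with a sum of 1070 to 1110 CPM against 543 to 589, and all 12 interferon-stimulated genes were higher (median log2 fold change 2.62). Mesenchymal markers summed to 204 to 209 CPM against 163 to 177, with 3 of 8 higher, LUM (0.96 ± 0.127) among them, and 1 lower, COL3A1 (-1.47 ± 0.156). In bulk RNA, fewer cells of a type cannot be told apart from less RNA per cell, and the part of these markers in the AHR target values was not tested.

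With ADARB1 siRNA, CYP1A1 was the single member called. It fell by 1.08 on the log2 scale (± 0.256, 2.12-fold, adjusted p = 0.0173 in edgeR's quasi-likelihood test), so 1 of 7 members was called where 4.61% of all tested genes were (2.1% higher, 2.51% lower). This call rested on few counts, 46 to 70 per library, and ended without siNC replicate 2 (-0.92, adjusted p = 0.0985), without ADARB1 siRNA replicate 1 (-0.84, adjusted p = 0.122) and without ADARB1 siRNA replicate 2 (-0.96, adjusted p = 0.102). The other 6 members lay between -0.42 (CYP1A2, adjusted p = 0.303) and -0.06 (CYP1B1, adjusted p = 0.794), all on the lower side, and the median was -0.24 against 0 for all tested genes. A fit of the batch 1 libraries alone called 3632 genes against 1066 in the fit over both batches, and in it 5 members were lower: CYP1A2 (-0.42, adjusted p = 0.0292), AHR (-0.24, adjusted p = 0.000715), TIPARP (-0.24, adjusted p = 0.00411) and ALDH3A1 (-0.26, adjusted p = 0.0135) joined CYP1A1. The GC correction also called ALDH3A1 (-0.32, adjusted p = 0.00393).

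Around them, 0 of 7 complex and partner genes, 1 of 7 tryptophan enzymes (TDO2, -0.43 ± 0.107) and 4 of 15 other AHR-responsive genes were called with ADARB1 siRNA. STC2, a secreted glycoprotein gene, rose (0.68 ± 0.104), and the efflux pump gene ABCG2 fell (-0.90 ± 0.153). Of 12 other P450s 7 fell and 0 rose, CYP7A1 (-0.87 ± 0.097) and CYP2E1 (-0.69 ± 0.079) with the smallest p. TIPARP-AS1 fell (-0.44 ± 0.112) where TIPARP itself was uncalled (-0.24, adjusted p = 0.268). Hepatocyte markers summed to 62300 to 65400 CPM, below the controls, and 4 of 10 were lower and 0 higher. Other marker sums were above the controls without overlap: biliary and progenitor markers at 606 to 619 CPM against 543 to 589 (2 of 7 tested higher, 0 lower), mesenchymal markers at 188 to 193 against 163 to 177 (2 of 8 higher, 0 lower), and endothelial markers, nearly all KDR (0.44 ± 0.071), at 213 to 225 against 153 to 167. The part of these markers in the member values was not tested.

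Both knockdowns share their controls, so they were also compared with each other. CYP1A2 was 1.96-fold higher with ADAR than with ADARB1 siRNA (0.97 ± 0.197, adjusted p = 0.00146), ALDH3A1 2.55-fold higher (1.35 ± 0.108, adjusted p = 5.67e-08) and CYP1B1 1.68-fold lower (-0.75 ± 0.067, adjusted p = 2.49e-07). AHR was 1.27-fold higher (0.35 ± 0.102, adjusted p = 0.0217), and 4 of 7 members were thus called where 19.5% of all tested genes were (9.9% higher, 9.64% lower). The AHR call ended with the GC correction (0.30, adjusted p = 0.117) and without any 1 of 5 libraries, ADAR siRNA replicates 1 and 3 and ADARB1 siRNA replicates 1, 2 and 3 (adjusted p = 0.0539 to 0.0809), while the 3 ADAR siRNA libraries were all above the 3 ADARB1 siRNA libraries. CYP1A1 at 0.42 (adjusted p = 0.315), TIPARP at -0.28 (adjusted p = 0.0718) and AHRR at -0.04 (adjusted p = 0.803) were uncalled, although TIPARP was called with the GC correction (adjusted p = 0.00443), without the filter on low counts (adjusted p = 0.0306) and in batch 1 alone (adjusted p = 0.000796), and CYP1A1 without ADARB1 siRNA replicate 3 (0.82, adjusted p = 0.0298). The same contrast had SERPINB2 higher (2.46 ± 0.199), ABCG2 higher (1.2 ± 0.153) and 4 of 7 tryptophan enzymes lower. Between the same libraries 5 of 10 hepatocyte markers were lower and 0 higher, 4 of 7 biliary and progenitor markers were higher and 0 lower, and all 12 interferon-stimulated genes were higher (median 2.77), and their part in the member values was not tested.

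IFNa moved the neighbours CYP1A1 and CYP1A2 apart. CYP1A1 was 2.40-fold higher than in the batch 2 controls (1.26 ± 0.305, adjusted p = 0.00415), and TIPARP was 1.42-fold higher (0.51 ± 0.121, adjusted p = 0.00361). ALDH3A1 was 1.73-fold lower (-0.79 ± 0.129, adjusted p = 0.000233), and CYP1A2 was lower (-2.15 ± 0.65, adjusted p = 0.0158) from 26 to 7 counts. CYP1B1 was 1.15-fold higher (0.20 ± 0.073, adjusted p = 0.0384), so 5 of 7 members were called, 3 higher and 2 lower, where 34.3% of all tested genes were (18.4% higher, 15.9% lower). AHR (-0.18 ± 0.114, adjusted p = 0.24) and AHRR (-0.24 ± 0.102, adjusted p = 0.0785) were not called, and the median of the 7 was -0.18 against -0.02 over all tested genes.

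ALDH3A1 alone of these 5 was called in all 11 alternatives, though with the GC correction it was at -0.45. Without IFNa replicate 1 CYP1A1 (1.17, adjusted p = 0.0581), TIPARP (0.36, adjusted p = 0.119), CYP1A2 (-1.68, adjusted p = 0.209) and CYP1B1 (0.28, adjusted p = 0.0678) were uncalled, and CYP1A2 was also uncalled without siNC replicate 3 (-1.43, adjusted p = 0.107). CYP1B1 was called in 2 of 11 alternatives and lay at 0.02 with the GC correction. With that correction TIPARP was at 0.28 and still called, AHR was lower (-0.56, adjusted p = 0.0107), and AHRR was at 0. Without siNC replicate 1 both AHR (-0.33, adjusted p = 0.00658) and AHRR (-0.31, adjusted p = 0.0225) were called, as was AHRR without IFNa replicate 2 (-0.36, adjusted p = 0.0323), with DESeq2 size factors (-0.27, adjusted p = 0.0495) and by DESeq2 (-0.27, adjusted p = 0.0469).

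Of the complex and partner genes 5 of 7 rose and 1 fell with IFNa. HIF1A, the hypoxia factor that shares ARNT with AHR, rose (0.77 ± 0.143), and EPAS1 fell (-0.42 ± 0.088). TDO2 rose (1.11 ± 0.122, from 59 ± 7.02 to 128 ± 5.02 CPM), while AFMID, the next enzyme of the kynurenine route, fell (-0.68 ± 0.104), and 2 of 7 tryptophan enzymes were higher and 1 lower in all. Of 15 other AHR-responsive genes 4 rose, among them STC2 (0.65 ± 0.109) and the adaptor gene NEDD9 (0.61 ± 0.106), and 3 fell. All 12 interferon-stimulated genes rose (median 5.12). Hepatocyte markers summed to 11600 to 12300 CPM against 12200 to 14800 in the controls, 6 of 10 lower and 0 higher, and their part in these values was not tested.

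BX795 gave the broadest response of these genes, and the CYP1 members did not move together. CYP1A1 rose 6.12-fold (2.61 ± 0.275, adjusted p = 1.24e-06) and CYP1B1 fell 2.62-fold (-1.39 ± 0.068, adjusted p = 1.17e-10). ALDH3A1 fell 2.32-fold (-1.21 ± 0.116, adjusted p = 4.3e-07), TIPARP rose 1.49-fold (0.57 ± 0.11, adjusted p = 0.000377), and AHR and AHRR fell 1.40-fold and 1.39-fold (-0.48 ± 0.102, adjusted p = 0.000829, and -0.47 ± 0.092, adjusted p = 0.000389). CYP1A2 rose 2.03-fold (1.02 ± 0.395, adjusted p = 0.0409). All 7 members were thus called, 3 higher and 4 lower, where 47.1% of all tested genes were called (23.4% higher, 23.7% lower), and their median was -0.47 against -0.01. If these cells lacked siNC, the inhibitor and a lack of transfection cannot be told apart here, and the same holds for IFNa.

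CYP1A1, CYP1B1, AHR, TIPARP and ALDH3A1 were called in all 12 alternatives, but the size of several moved with the GC correction. Without siNC replicate 3, the control with most AHR, AHR was at -0.30. With the GC correction AHR was at -0.94, TIPARP at 0.29, ALDH3A1 at -0.72 and AHRR at -0.10 (adjusted p = 0.204), while CYP1A1 at 2.77 and CYP1B1 at -1.63 were larger. The longest transcript of AHR has 38.19% GC, that of AHRR 57.41% and that of ALDH3A1 59.51%. The CYP1A2 call ended in the fit of batch 2 alone (0.95, adjusted p = 0.144) and without siNC replicate 1 (0.77, adjusted p = 0.184), siNC replicate 2 (0.69, adjusted p = 0.189), BX795 replicate 2 (1.11, adjusted p = 0.0537) or BX795 replicate 3 (0.76, adjusted p = 0.181), and CYP1A2 was at 1.77 without siNC replicate 3, the control with most CYP1A2.

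Of 15 other AHR-responsive genes 9 rose with BX795 and 3 fell, with a median of 0.58. The glucuronosyltransferase genes UGT1A6 (0.85 ± 0.072) and UGT1A1 (0.82 ± 0.087) had the smallest p of this list; they share exons, so their counts depend on how reads were divided. Of the complex and partner genes 4 of 7 rose and 1 fell, PTGES3 at 0.29 ± 0.067 and ARNT2 at -0.37 ± 0.069. Of the tryptophan enzymes 4 of 7 rose and 2 fell, KYNU at 0.83 ± 0.09 and AFMID at -1.02 ± 0.095. Of 12 other P450s 5 rose and 3 fell, with a median of 0.38. Among them CYP3A4 (5.52 ± 0.172) and CYP2B6 (1.95 ± 0.169), classical targets of the receptors PXR and CAR, rose further than any AHR target tested here other than CYP1A1, and CYP3A4 further than CYP1A1 as well. TIPARP-AS1 rose with TIPARP (0.72 ± 0.122) and CYP1B1-AS1 fell with CYP1B1 (-0.60 ± 0.203). CSK, the next gene beyond CYP1A2, was lower (-0.63 ± 0.125) but at 0.09 with the GC correction.

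Hepatocyte markers summed to 14800 to 16000 CPM with BX795, 3 of 10 higher and 5 lower. Biliary and progenitor markers summed to 205 to 208 CPM against 326 to 371 in the controls (2 of 7 tested higher, 4 lower), mesenchymal markers to 256 to 259 against 380 to 402, and blood cell and macrophage markers to 23.9 to 26.1 against 36.5 to 41.7. Endothelial markers, nearly all of it KDR, summed to 604 to 648 CPM with BX795 and to 629 to 692 with IFNa, against 411 to 456 in the shared controls. Their part in the member values was not tested.

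With BX795 and ADAR siRNA together, CYP1A1 was 5.96-fold (2.58 ± 0.291, adjusted p = 2.09e-06) and CYP1A2 3.81-fold (1.93 ± 0.383, adjusted p = 0.000586) higher than in the same siNC libraries. CYP1B1 was 2.44-fold lower (-1.29 ± 0.078, adjusted p = 1.17e-09) and AHRR 1.37-fold lower (-0.45 ± 0.103, adjusted p = 0.00177). So 4 of 7 members were called, where 40.3% of all tested genes were (21.4% higher, 18.9% lower), and the median was -0.07 against -0.02. AHR was at -0.18 (adjusted p = 0.237), called with the GC correction (-0.63, adjusted p = 0.00331) and without siNC replicate 1 (-0.35, adjusted p = 0.00372). TIPARP was at 0.26 (adjusted p = 0.103), with -0.02 under the GC correction, and was called without siNC replicate 1 (0.33, adjusted p = 0.0429). ALDH3A1 was at -0.07 (adjusted p = 0.718), and the GC correction turned it to 0.28 (adjusted p = 0.0084). CYP1A2 was at 2.63 without siNC replicate 3. The AHRR call ended without replicate 2 of BX795 with ADAR siRNA (-0.30, adjusted p = 0.0599), and with the GC correction AHRR was at -0.20. The comparison shares its controls with those of IFNa and of BX795 alone.

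The other AHR-responsive genes were again mostly on the higher side with both agents (8 of 15 higher, 2 lower, median 0.57). UGT1A6 rose (0.90 ± 0.079) and XDH fell (-2.06 ± 0.175). TDO2 fell (-2.51 ± 0.145), as did AFMID (-1.31 ± 0.109), and 2 of 7 tryptophan enzymes were higher. The chaperones HSP90AA1 (0.59 ± 0.071) and PTGES3 (0.53 ± 0.074) were among 4 of 7 complex genes that rose, while 1 fell. CYP3A4 was at 6.05 ± 0.177 and CYP2C8 at -1.59 ± 0.155 among 12 other P450s, of which 3 rose and 7 fell. Hepatocyte markers were lower in 7 of 10 and higher in 1. Summed markers were 230 to 234 CPM against 380 to 402 for mesenchymal cells and 19.9 to 21.1 against 36.5 to 41.7 for blood cells and macrophages. Biliary and progenitor markers summed to 259 to 287 CPM against 326 to 371, but single genes went both ways. Of 7 tested 3 were higher, KRT7 (1.51 ± 0.18) and SOX9 (0.70 ± 0.088) among them, and 3 were lower. Of 12 interferon-stimulated genes 10 were higher and 0 lower. The part of these markers in the member values was not tested.

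Within BX795-treated cells ALDH3A1 was 2.21-fold higher with ADAR siRNA than without it (1.15 ± 0.124, adjusted p = 7.34e-06). It was the single member of 7 called where 9.52% of all tested genes were (5.06% higher, 4.46% lower). If cells with BX795 alone lacked siNC, which the sources do not say, loss of ADAR and transfection itself cannot be told apart here. Of all genes called 53.2% were higher, or 42% with DESeq2 size factors. CYP1A1 did not pass the test (-0.04 ± 0.252, adjusted p = 0.961), nor did CYP1B1 (0.10 ± 0.075, adjusted p = 0.475). CYP1A2 was at 0.91 ± 0.31 (adjusted p = 0.0755), and was called without the filter on low counts (0.88, adjusted p = 0.00704) and by DESeq2 (0.87, adjusted p = 0.0272). AHR was at 0.30 (adjusted p = 0.104), AHRR at 0.02 (adjusted p = 0.944), or -0.10 (adjusted p = 0.401) with the GC correction, and TIPARP at -0.31 (adjusted p = 0.116), which the GC correction called (adjusted p = 0.0143), as did the fits without the filter on low counts (-0.34, adjusted p = 0.0271) and without BX795 replicate 1 (-0.43, adjusted p = 0.0481).

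Among the other genes of the pathway, XDH fell (-1.33 ± 0.177) and IGFBP1, an insulin-like growth factor binding protein gene, rose (1.43 ± 0.223) when ADAR siRNA was added to BX795. TDO2 fell (-1.94 ± 0.142, from 39.9 ± 1.76 to 10.3 ± 3.36 CPM), as did KMO (-0.73 ± 0.225), so 2 of 7 tryptophan enzymes were lower and 0 higher. HSP90AA1 (0.43 ± 0.07) and PTGES3 (0.24 ± 0.074) were the 2 of 7 complex genes called. Hepatocyte markers were again lower in 6 of 10 and higher in 0, with 9540 to 11900 CPM in sum against 14800 to 16000 with BX795 alone. Biliary and progenitor markers summed to 259 to 287 CPM against 205 to 208, with 2 of 7 tested higher, KRT19 (1.11 ± 0.139) and SPP1 (1.2 ± 0.106), and 1 lower. Of 12 interferon-stimulated genes 8 were higher and 0 lower, with a sum of 355 to 362 CPM against 237 to 255. The part of these markers in the member values was not tested.

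The response to ADAR siRNA differed between cells without and with BX795 for CYP1B1. It was -0.80 without and 0.10 with the inhibitor, a difference of 0.91 ± 0.101 (adjusted p = 4.47e-05 in edgeR's quasi-likelihood test of the interaction), and 1 of 7 members was called where 3.42% of all tested genes were (1.42% higher, 2% lower). This test crosses the batches, whose control levels of CYP1B1 were 41.9 ± 0.755 and 112 ± 7.89 CPM, so batch and inhibitor cannot be told apart. If cells with BX795 alone lacked siNC, that difference cannot be told apart from them either. ALDH3A1 had like values on both sides, 1.10 and 1.15 (difference 0.05 ± 0.164, adjusted p = 0.951, or -0.07, adjusted p = 0.825, with the GC correction). The differences of the other 5 were between 0.17 (AHRR, adjusted p = 0.667) and 0.63 (CYP1A1, adjusted p = 0.471) and were not called. SERPINB2 was the only one of 15 other AHR-responsive genes called here (-2.54 ± 0.298), and 10 of 12 interferon-stimulated genes were called, all lower.

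**Figure D3:**
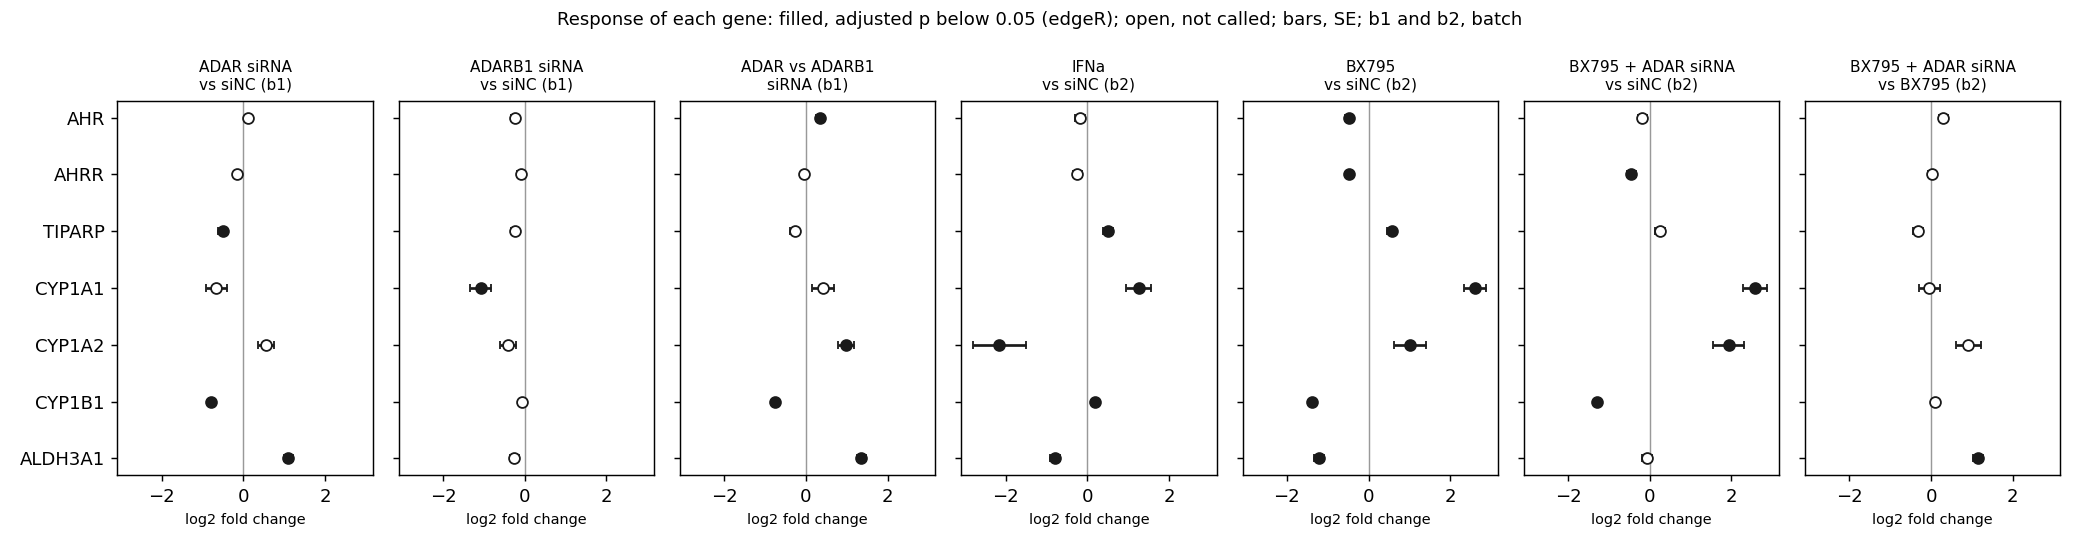
Log2 fold change (horizontal axis, bars are SE) of each gene in 7 comparisons within batch 1 (b1) or batch 2 (b2), filled where the adjusted p was below 0.05. BX795 has all 7 genes filled with CYP1A1 at 2.61 and CYP1B1 at -1.39. With ADAR siRNA, ALDH3A1 is at 1.10 against siNC in batch 1, at 1.35 against ADARB1 siRNA and at 1.15 within BX795-treated cells.

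**Figure D4:**
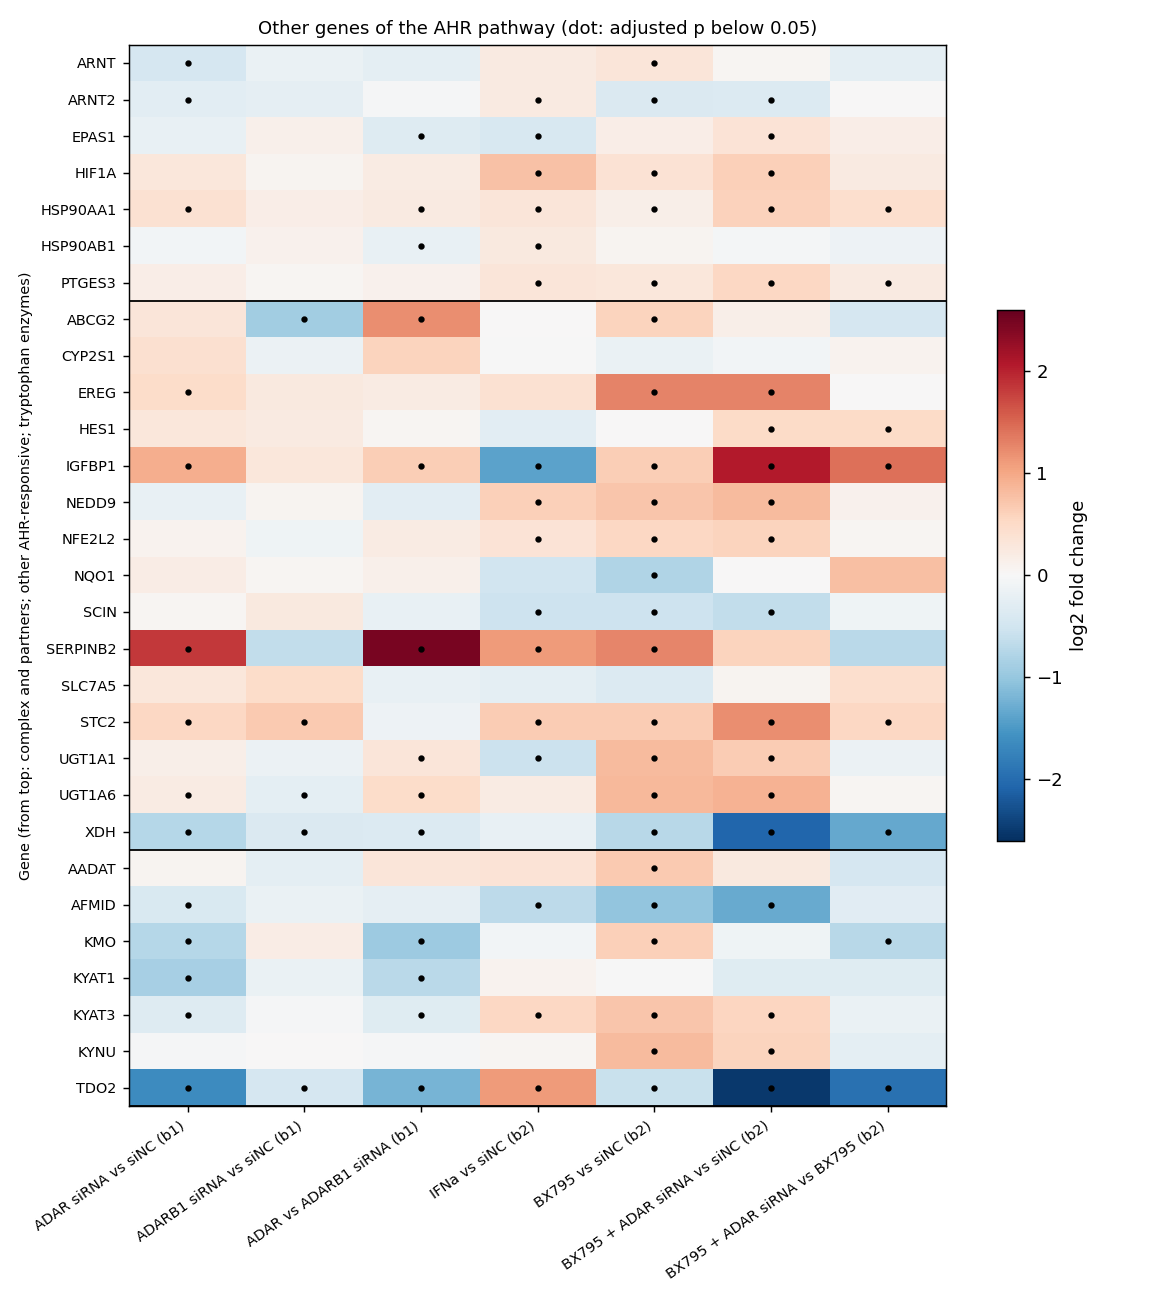
Log2 fold change (colour) of the other tested genes of the pathway (rows) in 7 comparisons (columns), with a dot where the adjusted p was below 0.05. TDO2 is lower with ADAR siRNA against siNC in batch 1 (-1.64), against ADARB1 siRNA (-1.21) and within BX795-treated cells (-1.94). It is higher with IFNa (1.11), and 9 of 15 other AHR-responsive genes are higher with BX795.

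The genes whose pattern over all libraries was most like that of a member were found by likeness. This was the root mean square difference of log2 CPM, each centred on its batch mean, over 19 libraries. Candidates were the 14678 or 14679 other tested genes with a symbol and a mean of at least 1 CPM in both batches. Likeness describes these libraries and uses the same values as the tests. A gene that did not vary at all would lie at the member's own root mean square, 0.20 for AHR, 0.26 for TIPARP, 0.58 for CYP1B1, 0.95 for CYP1A1 and 1.01 for CYP1A2. Nearest to AHR were MTDH (0.08), BAMBI (0.09) and FCHSD1 (0.09), nearly tied, against a median of 0.31 for all candidates. The 3 nearest to TIPARP were STX17, PRKAB2 and BCHE, each at 0.08 against a median of 0.33. CYP1B1 had LIPG (0.16), WNT11 (0.19) and NXPH4 (0.19) nearest, against a median of 0.63. For CYP1A1 the nearest were PDK4 (0.43), MUC13 (0.48) and RNF150 (0.49), against 0.96, and for CYP1A2 IGFBP1 (0.53), PPP1R14C (0.59) and NR4A1 (0.59), against 1.03. None of the 3 nearest genes of any of these 5 members was another member. CYP1A2 could not have been one, since its mean in batch 2 was below the limit of 1 CPM for candidates.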

How the data were processed

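The authors deposited 1 table of expected counts per gene for 19 libraries, made with STAR and Salmon on GRCh38.p14 per the submitters' processing notes. What each tool did, in which version and with which annotation, was not given in the sources used here. Of the values 94.82% were whole within 0.005; all were rounded. Symbols matched 61463 of 78894 genes. Genes passing filterByExpr (23121) entered a TMM-scaled quasi-likelihood F test (edgeR 4.0.16, R 4.3.3) in 1 model with a mean per group (12 residual degrees of freedom), which lets groups of 2 libraries share the spread of the rest. The squared difference between 2 replicates, averaged over genes, was 5.66 to 18.7 times that expected from counting alone in batch 1. In batch 2 it was 5.52 to 58.1 times. The shared spread may thus be too wide for batch 1 and too narrow for batch 2. With IFNa it called 7932 genes, against 4705 in batch 2 alone. P-values were adjusted by Benjamini-Hochberg over all tested genes and called below 0.05. SEs come from the F statistic. Exon lengths and GC (of the longest transcript of each gene) are from GENCODE release 29, positions and promoters from RefSeq. Marker and pathway lists, members and tests were chosen with earlier results of these data known. Named were the members, the 2 called genes with the smallest p per list and comparison, neighbouring loci and the 3 most like genes. KDR and markers named for being near 0 were chosen after their values were seen. Alternatives were DESeq2 1.42.0 size factors or its test, no filter, a GC correction (lowess span 0.3, GC known for 87% of tested genes), a replicate block, 1 batch alone and leaving out each library. Lower totals in batch 2 widen the errors of weak genes. A gene listed with the receptor complex is not reported here.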

Additional observations from a re-analysis of the deposited data

Results flagged for a closer look

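CYP1B1 was singled out because its response to ADAR siRNA differed between cells with and without BX795 by a test of the difference itself. The interaction was 0.91 on the log2 scale (adjusted p = 4.47e-05 in edgeR's quasi-likelihood test), and over 16 alternative settings it lay between 0.82 and 0.93 and was called in all 16. All 3 ADAR siRNA libraries of batch 1 were below their 3 controls. BX795 with ADAR siRNA had 44.8 and 47.0 CPM, and BX795 alone had 44.4, 42.8 and 41.1 CPM. That comparison was not called by the same edgeR test (0.10 ± 0.075, adjusted p = 0.475). The test crosses the batches, so batch and inhibitor cannot be told apart, nor can a lack of siNC in the cells with BX795 alone, if it was lacking.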

How the results depend on the processing

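Of the members' values under all alternatives, 599 kept direction and side of the threshold, 29 lost the call, 33 gained it and 18 changed sign; for other named genes these were 2291, 232, 0 and 3. The cause was not tested unless a setting removes libraries. The same batch alone called 8223 genes with ADAR siRNA (5 members), 3632 with ADARB1 siRNA (5 members), 7768 between the knockdowns, 4705 with IFNa and 758 for BX795 with ADAR siRNA against BX795. The GC correction gave 1889 genes and 2 members with ADARB1 siRNA, 6507 genes and 6 members with ADAR siRNA, 3330 genes and 2 members for BX795 with ADAR siRNA against BX795, 1452 genes in the interaction, 5816 genes with IFNa and 7664 with BX795. DESeq2's test called 1648 genes with ADARB1 siRNA, 1250 in the interaction, and 2629 genes and 2 members for BX795 with ADAR siRNA against BX795. Without the filter, 4905 genes and 5 members were called with ADAR siRNA, and 2303 genes and 3 members for BX795 with ADAR siRNA against BX795. Same-numbered replicates did not deviate together (correlations -0.08 to 0.11 in batch 1 and -0.22 to 0.21 in batch 2; 4 of 9 and 0 of 10 libraries were closest to their own number). With the replicate number as a block, 686 genes were called with ADARB1 siRNA, 1414 (2 members, CYP1A2 at 1.34 added) for BX795 with ADAR siRNA against BX795 and 459 in the interaction. The block also called CYP1A2 with ADAR siRNA (adjusted p = 0.0415), and no longer CYP1B1 with IFNa (adjusted p = 0.0832). The joint GC and block fit was not run, since the numbers do not pair samples.

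Leaving out 1 library gave 603 to 708 genes and 0 to 1 members with ADARB1 siRNA, 2494 (without IFNa replicate 1) to 9623 genes and 1 to 6 members with IFNa, and 4963 (without replicate 2 of BX795 with ADAR siRNA) to 10438 genes for BX795 with ADAR siRNA against siNC. It gave 1045 (without replicate 1 of BX795 with ADAR siRNA) to 1944 genes and 1 to 2 members for BX795 with ADAR siRNA against BX795, and 384 (without the same library) to 744 genes in the interaction. Of the sign changes among members, only ALDH3A1 under the GC correction was called. AHRR in BX795 with ADAR siRNA against BX795 was -0.02 with DESeq2 factors and its test, -0.01 without the filter, -0.1 with the GC correction, -0.04 without BX795 replicate 3 and -0.21 to 0.15 when 1 library was left out, the lowest without replicate 1 of BX795 with ADAR siRNA. The GC correction put AHRR at 0 with IFNa, TIPARP at -0.02 and ALDH3A1 at 0.28 with BX795 and ADAR siRNA, ALDH3A1 at -0.07 in the interaction, and CSK at 0.05, 0.09 and 0.11 with IFNa, BX795 and BX795 with ADAR siRNA. ALDH3A1 with BX795 and ADAR siRNA was 0.01 without siNC replicate 2 and 0.09 without replicate 2 of its own group (range -0.27 to 0.09), and in the interaction -0.02 without batch 1 siNC replicate 3 and -0.19 without replicate 1 of BX795 with ADAR siRNA (range -0.19 to 0.17). Without that library AHRR was -0.07 in the interaction (range -0.07 to 0.29), and without replicate 2 of that group TIPARP there was 0 (range 0 to 0.29) and CYP1A1 against BX795 was 0.05. AHRR between the knockdowns was 0.02 without ADARB1 siRNA replicate 1. Depth limits CYP1A2 most, with 3 to 14 counts in the batch 2 controls.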
